A study of Mus musculus with 4 samples.

Results

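The genes described here build the nuclear lamina and the inner nuclear membrane. They are the lamin genes *Lmna*, *Lmnb1* and *Lmnb2*, the lamin B receptor gene *Lbr*, the LEM-domain genes *Emd*, *Tmpo* and *Lemd3* with their partner *Banf1*, and the SUN-domain genes *Sun1* and *Sun2*. The 10 genes were chosen by name, with no measured value in the rule, from the 24391 gene symbols that were counted. All 10 were present and all 10 passed the filter on low counts, as did 13668 symbols in all.

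RNA-seq was performed on 4 libraries of mRNA from primary mouse embryonic fibroblasts (MEFs), 2 wild-type (WT) and 2 *Phf2* KO. *Phf2* encodes a PHD finger protein that binds histone H3 methylated at lysine 4. The cells came from E13.5 embryos and were made quiescent by confluence and resting medium. The study asked with these libraries whether loss of Phf2 alters gene expression in MEFs. All 4 libraries are labelled with the genotype *Phf2* flox/flox, ERCre/+, so the WT cells also carried floxed *Phf2* and the CreERT2 recombinase, which is expressed from the Rosa26 locus. The WT libraries have no treatment label and are described as without tamoxifen, whereas the *Phf2* KO libraries are labelled Tamoxifen. The protocol gives 0.5 µM 4-hydroxytamoxifen (4-OHT) in medium with 2% charcoal-treated serum for 7 days. It is worded alike for all 4 libraries, against the description of WT as without tamoxifen, and the medium or vehicle of the WT cells is not stated by name. Loss of Phf2, activity of Cre and 4-OHT itself therefore cannot be told apart in these samples. Chromosome conformation, ChIP-seq and imaging were not analysed here.

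The lamina is a meshwork of lamin filaments that lines the inner nuclear membrane and gives the nucleus its stiffness. A-type lamins, both encoded by *Lmna*, are abundant in differentiated cells such as fibroblasts, whereas B-type lamins are found in nearly all cells. The lamins, the lamin B receptor and the LEM-domain proteins hold heterochromatin at the nuclear edge, and SUN-domain proteins connect the lamina through nesprins to the cytoskeleton.

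The libraries held between 21094743 and 26094268 counts. Where a pair of values is given for a group, the first is replicate 1 and the second replicate 2. *Phf2* was counted 3244 and 3680 times in the WT libraries and 1454 and 2158 times in the *Phf2* KO libraries. In CPM, which are counts divided by the library size after TMM scaling and set to a common total, its level was 138 ± 5.11 in WT and 80.0 ± 13.9 in *Phf2* KO (SD, n = 2). *Phf2* itself was not called on genotype alone (edgeR adjusted p = 0.999), so that this fit missed the deleted gene, and it was called with the replicate number added (adjusted p = 7.67e-19). The WT libraries held 10042 and 3 counts of *Xist*, the RNA of the inactive X chromosome, and the *Phf2* KO libraries 8336 and 12, and *Ddx3y* of the Y chromosome had 6, 1271, 10 and 1295 counts in the same order, so that in both groups replicate 1 was female and replicate 2 male. Macrophage markers also separated the replicates. The 21 markers tested of 23 had a summed level of 4832 and 1032 CPM in the WT libraries and 5319 and 1602 CPM in the *Phf2* KO libraries, and none was at 0 in any library. Markers of fibroblasts, the labelled cell type, were summed over 14 genes. The sum was 83688 and 86992 CPM in the WT libraries and 75559 and 73159 CPM in the *Phf2* KO libraries. For 6 of the 14, both *Phf2* KO libraries lay below both WT libraries, beside 18.0% of all genes. They lay above for 0, beside 15.5%. The study describes the libraries of each group as biological replicates, and within each group the sexes show that they came from different embryos. The labels do not say whether the WT and *Phf2* KO libraries of 1 number came from the same embryo. Each *Phf2* KO to WT ratio is also given within its replicate number, and a second fit that adds the replicate number to genotype (the replicate block) is given beside the fit on genotype alone where it changes a call.

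The count table has 1 row for each gene, so lamin A and lamin C, which are spliced from the same *Lmna* transcript, were measured together. Their reading frames end in different exons of *Lmna* on chromosome 3 (88285070 to 88313878 of mm9, reverse strand). The ends are shown to make plain what the single *Lmna* count joins, next to that of the B-type lamin gene *Lmnb2* (chromosome 10, 80363948 to 80380990, reverse strand). Capitals mark the last 4 codons, the first of which encodes the cysteine that is farnesylated, and the stop codon. The sequences are from mm9, 5′ to 3′ on the coding strand.
Lmna-001, lamin A, exon 12 of 12, chr3:88285996-88286022: agctcccagaacTGCAGCATCATGTAA
Lmna-002, lamin C, exon 10 of 10, chr3:88287219-88287248: caccaccgtgtgagtggcagccgccgctga
Lmnb2-001, lamin B2, exon 12 of 12, chr10:80365604-80365633: actacctcaaggggcTGCCGACTGATGTGA
Lamin A and lamin B2 end in a cysteine motif of this kind. The reading frame of lamin C ends upstream of the exon that carries it in lamin A.

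*Lmna* was by far the most abundant of the 10. It was counted 14869 and 19961 times in the WT libraries and 13762 and 16560 times in the *Phf2* KO libraries, which is 617 and 769 CPM in WT and 664 and 689 CPM in *Phf2* KO. Both *Phf2* KO libraries lay between the WT libraries, which were the lowest and the highest of the 4. The log2 fold change of *Phf2* KO over WT was -0.03 ± 0.14 (SE), with a 95% interval from -0.40 to 0.33. In bulk RNA, fewer cells that express a gene and less RNA per cell cannot be told apart. Within replicate 1 the log2 ratio of *Lmna* was 0.11, and within replicate 2 it was -0.16. Each ratio rests on 1 library per group, and the difference in sign was not tested.

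*Lmnb1*, which encodes the B-type lamin B1 (chromosome 18, 56867467 to 56913078, forward strand), differed most between the groups among the 10. It was counted 379 and 328 times in the WT libraries and 379 and 432 times in the *Phf2* KO libraries. Scaled to library size this was 15.7 and 12.6 CPM in WT and 18.3 and 18.0 CPM in *Phf2* KO. Both *Phf2* KO libraries were above both WT libraries, and the *Phf2* KO libraries were closer to each other than the WT libraries were. The fold change was 1.28 (log2 0.35 ± 0.15, SE; 95% interval from -0.05 to 0.76), and the quasi-likelihood test of edgeR gave an unadjusted p of 0.0729, or 0.999 after Benjamini-Hochberg adjustment over 13668 genes. The ratio of *Phf2* KO to WT was 0.22 on the log2 scale in replicate 1 and 0.51 in replicate 2, the same direction in both. With the replicate block the log2 fold change was 0.36 ± 0.12 (95% interval from 0.13 to 0.60), and the adjusted p of edgeR's quasi-likelihood test was 0.0344, below the threshold of 0.1. Of all genes tested, 5.77% were called higher in that fit. The same block gave an adjusted p of 0.0461 in limma-voom (SE 0.12) and 0.632 in DESeq2 (SE 0.21). The interval of edgeR with the block rests on a variance pooled over all genes, with none estimated for *Lmnb1* alone.

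The size of the *Lmnb1* difference rested on which WT library was used. Without WT replicate 1 the log2 fold change was 0.53, and without WT replicate 2 it was 0.19. Macrophage markers were also compared between the groups. On genotype alone the median log2 fold change of the 21 tested was 0.07. Of these, 10 had the same sign in both replicate numbers, beside 62.7% of all genes. Of the 21 tested, 9 were called higher in *Phf2* KO in the fit with the block and 0 were called lower, again beside 5.77% and 5.20%. Their summed level was above that of the WT library of the same number in both *Phf2* KO libraries. The part of these cells in the *Lmnb1* values was not tested. *Lmnb1* is also known to be more abundant in cycling cells. Summed over the 35 proliferation genes, the level was 659 and 468 CPM in WT and 562 and 488 CPM in *Phf2* KO. The median log2 fold change of the 35 was 0.01, and 12 had the same sign in both replicate numbers, beside 62.7% of all genes. Their median log2 difference of replicate 1 over replicate 2 was 0.65 in WT and 0.17 in *Phf2* KO. With the block 0 of them were called higher and 4 lower, beside 5.77% and 5.20% of all genes. The part of cycling cells in the *Lmnb1* values was not tested. *Pcna*, the clamp of the replicating DNA polymerase, was at 52.3 and 36.1 CPM in the WT libraries and 59.4 and 38.5 CPM in the *Phf2* KO libraries. *Rrm1*, a subunit of ribonucleotide reductase, was at 80.5 and 70.5 CPM in WT and 64.1 and 57.2 CPM in *Phf2* KO. *E2f1* was at 53.7 and 54.4 CPM in WT and 54.0 and 51.8 CPM in *Phf2* KO, and *Mcm2* at 42.9 and 31.5 CPM and 35.4 and 25.2 CPM. In the comparison of replicate numbers with genotype as a term, 23 of the 35 were called higher in replicate 1 and 0 lower. Over all genes, 26.2% were called in either direction.

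*Lmnb2*, the other B-type lamin gene, had values in the opposite order. It was counted 511 and 600 times in the WT libraries and 411 and 502 times in the *Phf2* KO libraries, or 21.2 and 23.1 CPM against 19.8 and 20.9 CPM. Both *Phf2* KO libraries were below both WT libraries by a narrow gap, and the log2 fold change of -0.12 ± 0.11 did not pass the test (95% interval from -0.41 to 0.17). Within the replicate numbers the log2 ratio was -0.10 and -0.15. Because *Lmnb1* and *Lmnb2* values lay in opposite orders, the ratio of *Lmnb1* to *Lmnb2*, each in CPM per kilobase of its longest coding transcript, was 0.921 and 0.679 in the WT libraries and 1.15 and 1.07 in the *Phf2* KO libraries. The 2 groups had to be apart in this ratio, since they were apart in opposite directions for the 2 genes. The exact permutation test (two-sided) therefore gave p = 0.333, the smallest that 2 libraries against 2 allow, and adds nothing to the values of the 2 genes. Whether the ratio lay above or below 1 depended on the length used, since with all annotated exons it was 1.07 and 0.791 in WT, against 1.33 and 1.25 in *Phf2* KO. The ratio of *Lmna* to the sum of *Lmnb1* and *Lmnb2*, per kilobase, was 19.6 ± 3.69 in WT and 17.7 ± 0.267 in *Phf2* KO (SD, n = 2), with overlapping groups (exact permutation p = 1). This ratio also depended on the length used, and with all annotated exons its mean was 16.4 in WT and 14.6 in *Phf2* KO.

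**Figure D1:**
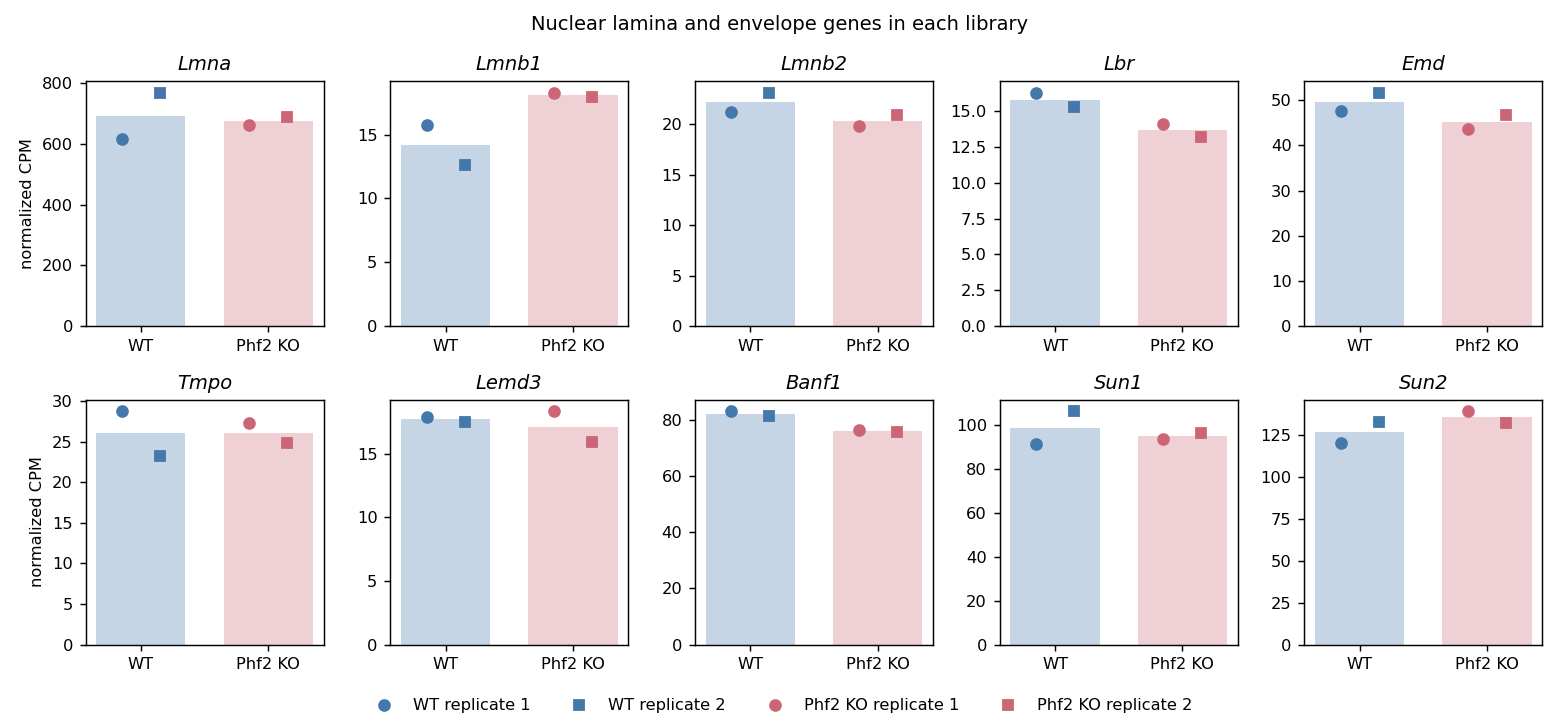
Level of each of the 10 genes in each of the 4 libraries, in CPM (counts scaled by library size and TMM), 1 panel for each gene with its own axis from 0. Points are single libraries and bars are group means. *Lmnb1* is the 1 gene with both *Phf2* KO libraries above both WT libraries (18.3 and 18.0 against 15.7 and 12.6 CPM).

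*Lbr* encodes the lamin B receptor, an inner membrane protein that binds B-type lamins and heterochromatin and is also a sterol reductase (chromosome 1, 183745447 to 183772532, reverse strand; a 5S ribosomal RNA is annotated on the same strand within it). It was counted 393 and 398 times in the WT libraries and 293 and 318 times in the *Phf2* KO libraries, which is 16.3 and 15.3 CPM against 14.1 and 13.2 CPM. All values were close, with both *Phf2* KO libraries below both WT libraries. The log2 fold change was -0.21 ± 0.12, the lowest of the 10, with a 95% interval from -0.54 to 0.12 and an unadjusted p of 0.157 by edgeR's quasi-likelihood test. It was nearly the same within each replicate number (-0.21 in both), and with the replicate block the adjusted p of edgeR's test was 0.355.

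The 3 LEM-domain genes encode inner membrane or nucleoplasmic proteins that bind DNA through the barrier-to-autointegration factor, the product of *Banf1*. *Emd*, the gene of emerin (chromosome X, 71500026 to 71506887, forward strand, overlapping the pseudogene *Gm14686* on the same strand), was counted 1148 and 1341 times in the WT libraries and 905 and 1123 times in the *Phf2* KO libraries. Its level was 47.6 and 51.7 CPM in WT against 43.7 and 46.7 CPM in *Phf2* KO. The groups did not overlap, but the gap between *Phf2* KO replicate 2 and WT replicate 1 was small next to the differences within each group. The log2 fold change of *Emd* was -0.14 ± 0.097, and within the replicate numbers the log2 ratio was -0.12 and -0.15. *Banf1* (chromosome 19, 5364641 to 5366645, reverse strand) was counted 2007, 2116, 1587 and 1820 times in the WT libraries and *Phf2* KO replicates 1 and 2. Its level was 83.3 and 81.5 CPM in WT and 76.6 and 75.7 CPM in *Phf2* KO. *Banf1* was the most even of the 10 between replicates, with the groups apart. Its log2 fold change was -0.11 ± 0.073, with a 95% interval from -0.31 to 0.08 (edgeR unadjusted p = 0.187). Within the replicate numbers the log2 ratio of *Banf1* was -0.12 and -0.11.

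*Tmpo* encodes the lamina-associated polypeptides 2 (LAP2), of which some isoforms span the inner membrane and LAP2α binds A-type lamins in the nucleoplasm (chromosome 10, 90610316 to 90634759, reverse strand). The gene was counted 694 and 605 times in the WT libraries and 566 and 599 times in the *Phf2* KO libraries, or 28.8 and 23.3 CPM in WT and 27.3 and 24.9 CPM in *Phf2* KO. Replicate 1 was above replicate 2 in both groups, and the log2 fold change of *Phf2* KO over WT was 0.0035 ± 0.14 (95% interval from -0.38 to 0.39). *Lemd3* encodes MAN1, which binds SMAD proteins and limits TGF-β and BMP signalling (chromosome 10, 120360469 to 120416388, reverse strand). It was counted 432 and 454 times in the WT libraries and 380 and 382 times in the *Phf2* KO libraries, at 17.9 and 17.5 CPM in the WT libraries and 18.3 and 15.9 CPM in the *Phf2* KO libraries. The highest and the lowest *Lemd3* values were both in *Phf2* KO, and the log2 fold change was -0.05 ± 0.13.

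*Sun1* and *Sun2* encode inner membrane proteins that bind nesprins across the perinuclear space. *Sun1* (chromosome 5, 139676591 to 139725794, forward strand) was counted 2199 and 2760 times in the WT libraries and 1938 and 2321 times in the *Phf2* KO libraries, or 91.2 and 106 CPM in WT and 93.5 and 96.5 CPM in *Phf2* KO. *Sun2* (chromosome 15, 79554500 to 79572966, reverse strand) was counted 2896 and 3440 times in the WT libraries and 2878 and 3170 times in the *Phf2* KO libraries, or 120.2 and 133 CPM in WT and 139 and 132 CPM in *Phf2* KO. The groups overlapped for both genes. The log2 fold change was -0.06 ± 0.10 for *Sun1* and 0.10 ± 0.091 for *Sun2*. The ratio of *Sun2* to *Sun1*, in CPM per kilobase, was 1.43 and 1.35 in the WT libraries and 1.61 and 1.48 in *Phf2* KO, with the groups apart (exact permutation p = 0.333, the smallest that 2 libraries against 2 allow).

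Between genes, levels were compared per kilobase of the longest coding transcript. In WT the mean level was 219.6 CPM per kilobase for *Lmna* and 111 for *Banf1*, followed by 33.2 for *Sun2*, 31.1 for *Emd* and 23.9 for *Sun1*. The other 5 genes lay at 6.90 (*Tmpo*), 6.28 (*Lmnb2*), 4.99 (*Lmnb1*), 4.46 (*Lbr*) and 3.73 (*Lemd3*) CPM per kilobase. Over the 4 libraries, neighbours in this order did not overlap down to *Sun2*, nor between *Emd* and *Sun1* and between *Sun1* and *Tmpo*. *Sun2* and *Emd* overlapped, and so did each pair of neighbours from *Tmpo* down to *Lemd3*. When the length of all annotated exons was used, the first 5 genes kept their order, and *Tmpo*, at 3.90 CPM per kilobase, moved below *Lmnb2* (5.17), *Lmnb1* (4.79) and *Lbr* (4.46).

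**Figure D2:**
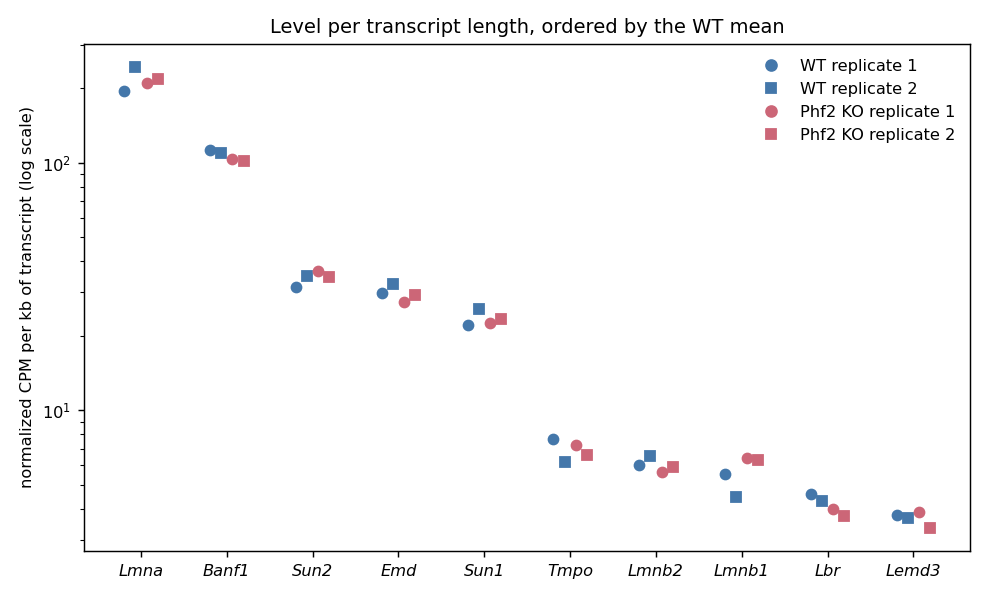
Level of the 10 genes in CPM per kilobase of the longest coding transcript, on a log axis, for the 4 libraries. Points are single libraries. *Lmna* (219.6 in the WT mean) and *Banf1* (111) stand above *Sun2*, *Emd* and *Sun1*, and the other 5 genes lie between 3.73 and 6.90 in the WT mean.

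Across the 10 genes, none was called between *Phf2* KO and WT at an adjusted p below 0.1 in edgeR's quasi-likelihood test on genotype alone, where 0.00732% of all genes tested were called. None had an unadjusted p below 0.05 either, against 4.21% of all genes, and DESeq2 and limma-voom also gave 0 of 10 at both thresholds. The median log2 fold change of the 10 was -0.05, beside 0.0054 over all genes, and the median size of the change regardless of sign was 0.107, beside 0.122. For the 9 genes other than *Lmnb1*, the 95% intervals lay between a fold of 0.689, the lower bound of *Lbr*, and 1.31, the upper bound of *Tmpo*. The interval of *Lmnb1* ran from 0.966 to 1.69.

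**Figure D3:**
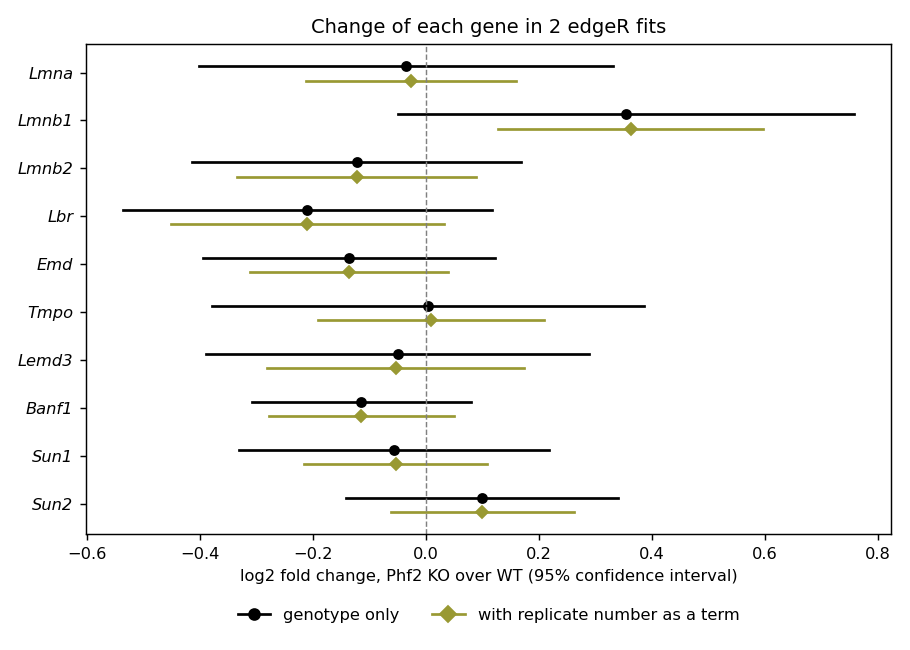
Log2 fold change of *Phf2* KO over WT for each of the 10 genes, with 95% intervals, from edgeR with genotype alone and with the replicate block. Intervals of all 10 genes cross 0 with genotype alone, and the interval of *Lmnb1* (0.13 to 0.60) lies above 0 with the block.

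*Phf2* KO was above WT in both libraries for 1 of the 10 genes (*Lmnb1*), beside 15.5% of all genes tested, and below WT in both for 4 (*Lmnb2*, *Lbr*, *Emd* and *Banf1*), beside 18.0%. Such genes have the same sign of the ratio in both replicate numbers by construction. No other member did, so 5 of the 10 had the same sign, beside 62.7% of all genes. With the replicate block, 1 of the 10 was called, beside 11.0% of all genes in either direction. The blocked estimates of the other 9 genes moved by little, and the lowest adjusted p among these 9 was 0.355, for *Lbr*, by the quasi-likelihood test of edgeR.

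**Figure D4:**
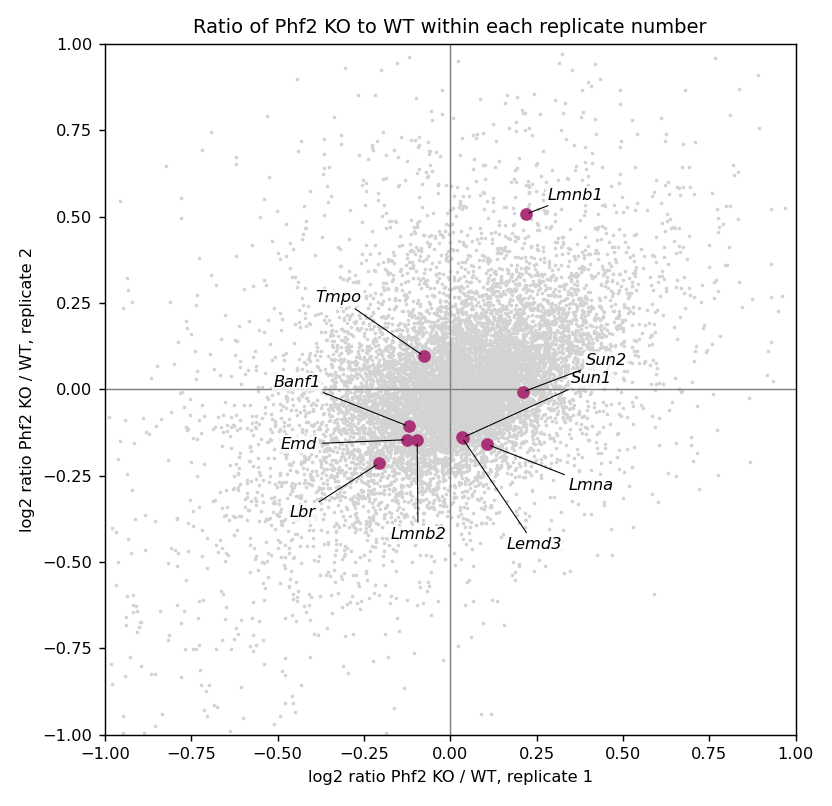
Log2 ratio of *Phf2* KO to WT in replicate 1 (horizontal axis) and in replicate 2 (vertical axis) for the 10 genes, over genes whose mean count was 50 or more in grey, of which 11427 of 11556 lie within the axis limits and are drawn. *Lmnb1* lies in the upper right (0.22 and 0.51), *Lmnb2*, *Lbr*, *Emd* and *Banf1* in the lower left, and the other 5 genes have opposite signs in the 2 replicates.

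The replicate numbers were also compared with each other. In edgeR's quasi-likelihood test of replicate 1 against replicate 2 with genotype as a term, 0 of the 10 genes were called, beside 26.2% of all genes. *Tmpo* came nearest, with a log2 difference of 0.22 ± 0.10 (replicate 1 over 2) and an unadjusted p of 0.0307 (adjusted 0.114), and it was the only one of the 10 with an unadjusted p below 0.05. DESeq2 gave 0 genes of the 10 below that level and limma-voom 2, and neither called any. *Lmna* followed, with replicate 1 lower by 0.19 ± 0.095 (log2 difference -0.19). When libraries were scaled by their total alone, *Lmna* was called. Regardless of sign, the median log2 difference between the replicates over the 10 genes was 0.134 in WT and 0.0745 in *Phf2* KO, beside 0.196 and 0.166 over all genes.

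Beyond the 10, another 92 genes of the nuclear envelope were listed by role, and 86 of them passed the filter. None was called between *Phf2* KO and WT by edgeR's quasi-likelihood test on genotype alone, nor by DESeq2 or limma-voom. Their median log2 fold change was -0.07, with 27 positive and 59 negative values, and 5 had an unadjusted p below 0.05, beside 4.21% of all genes, each with a negative value. With the replicate block edgeR called 14, 3 higher and 11 lower, beside 5.77% and 5.20% of all genes, while limma-voom with the block called 13 and DESeq2 with the block 0. *Phf2* KO lay above WT in both libraries for 11 of the 86 genes and below for 23, beside 15.5% and 18.0% of all genes.

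Of the genes that encode partners of the SUN proteins, *Syne1* and *Syne3* were among those called with the block. *Syne1*, which encodes nesprin-1, was at 79.9 and 77.0 CPM in the WT libraries and 65.3 and 64.1 CPM in the *Phf2* KO libraries, and *Syne3*, which encodes nesprin-3, was at 29.1 and 30.6 CPM in WT and 24.7 and 21.7 CPM in *Phf2* KO. Both were lower in both *Phf2* KO libraries. Their log2 fold changes with the block were -0.28 ± 0.084 and -0.37 ± 0.10 (edgeR adjusted p = 0.0188 and 0.00759). *Syne2*, the gene of nesprin-2, was at 24.6 ± 0.553 CPM in WT and 24.5 ± 1.72 CPM in *Phf2* KO (SD, n = 2). Of the 6 genes of the LINC complex tested besides *Sun1* and *Sun2*, 2 were called lower with the block and 0 higher, beside 5.20% and 5.77% of all genes.

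Among 8 further genes of LEM-domain and lamin-binding proteins, 2 were called lower with the block (5.20% of all genes) and 1 higher (5.77%). *Tor1aip1*, the gene of the lamin-binding protein LAP1, was at 120.1 and 107 CPM in the WT libraries and 97.5 and 92.0 CPM in the *Phf2* KO libraries. *Lemd2*, whose product is a further LEM-domain protein of the inner membrane, was at 107 and 135 CPM in WT and 135 and 144 CPM in *Phf2* KO. *Mlip*, which encodes a lamin A/C-interacting protein of muscle, was at 5.93 and 5.59 CPM in WT and 2.03 and 3.08 CPM in *Phf2* KO. The log2 fold changes with the block were -0.26 for *Tor1aip1*, 0.22 for *Lemd2* and -1.17 for *Mlip* (edgeR adjusted p = 0.0258, 0.0812 and 8.99e-07). The summed level of the 3 muscle markers tested of 8 was 54.1 and 25.7 CPM in the WT libraries and 33.2 and 15.1 CPM in the *Phf2* KO libraries, and their part in the *Mlip* values was not tested.

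Nuclear pore genes had mostly negative values. Of 30 tested, 24 had a negative log2 fold change, beside 6665 of all 13668 genes, and the median was -0.09. Both *Phf2* KO libraries were below both WT libraries for 11 of the 30, beside 18.0% of all genes, and above for 0, beside 15.5%. With the block 4 were called lower, beside 5.20% of all genes. *Nup98* was at 112 and 104 CPM in the WT libraries and 90.2 and 91.6 CPM in the *Phf2* KO libraries. *Nup153*, of the nuclear basket, was at 48.3 and 38.1 CPM in WT and 35.8 and 33.5 CPM in *Phf2* KO. *Ranbp2*, of the cytoplasmic filaments, was at 53.4 and 38.2 CPM in WT and 37.3 and 36.4 CPM in *Phf2* KO, and *Nupl1*, of the central channel, at 17.9 and 12.6 CPM and 11.3 and 11.7 CPM. For *Nup153*, *Ranbp2* and *Nupl1*, WT replicate 1 stood above the other 3 libraries.

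Of 16 other membrane proteins of the envelope, the block called 3 lower and 1 higher, where 5.20% and 5.77% of all genes were called. *Tm7sf2*, which encodes a sterol reductase related to the lamin B receptor, was at 17.8 and 20.7 CPM in the WT libraries and 15.7 and 15.1 CPM in the *Phf2* KO libraries. *Tmem97* was at 22.7 and 16.9 CPM in WT and 14.5 and 15.6 CPM in *Phf2* KO, and *Tmem209* at 20.7 and 17.3 CPM and 15.8 and 14.6 CPM. *Tmem38b*, which encodes a cation channel of the endoplasmic reticulum and nuclear membrane, was at 30.7 and 29.6 CPM in WT and 38.5 and 33.5 CPM in *Phf2* KO and was called higher. Of 16 genes for envelope assembly and sealing, *Lpin1*, the gene of the phosphatidate phosphatase lipin-1, was the only one called (higher with the block, as were 5.77% of all genes), at 56.1 and 70.6 CPM in WT and 71.9 and 87.3 CPM in *Phf2* KO.

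The enzymes that modify the cysteine ends shown above were not called in either fit. The 6 genes of lamin processing had log2 fold changes between -0.13 and 0.06. *Zmpste24*, the protease that cleaves prelamin A, was at 43.4 and 39.4 CPM in the WT libraries and 38.8 and 37.7 CPM in the *Phf2* KO libraries. The farnesyltransferase genes *Fnta* and *Fntb* had log2 fold changes of -0.09 and -0.13. The 4 torsin genes were not called either, with values between -0.07 and 0.20.

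**Figure D5:**
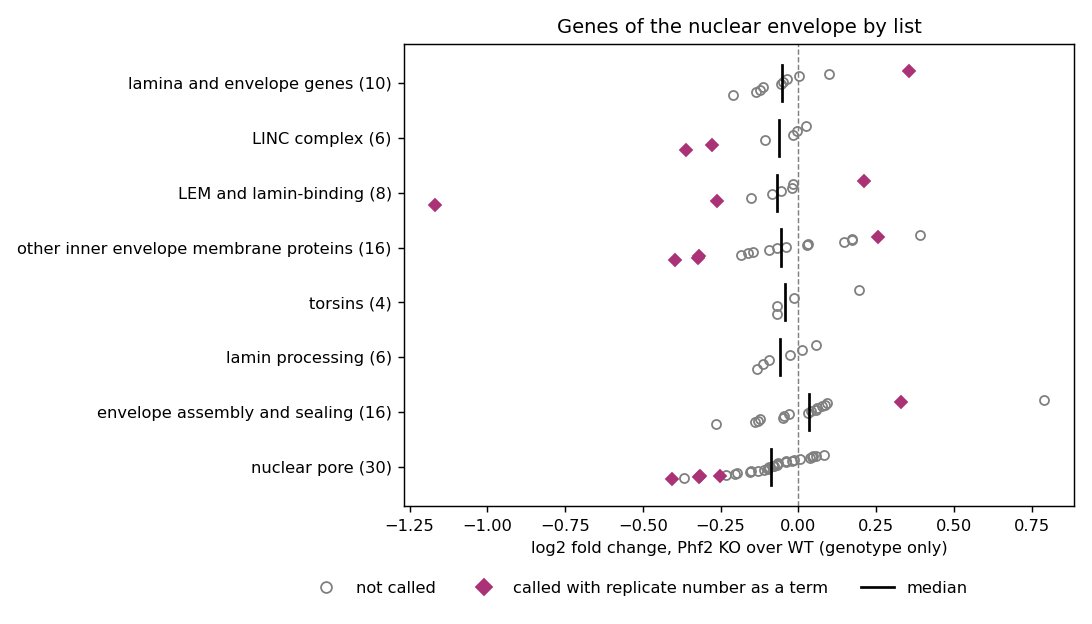
Log2 fold change of *Phf2* KO over WT (edgeR, genotype alone) for each tested gene of the nuclear envelope lists and for the 10 genes described first. Each point is 1 gene, diamonds are genes called with the replicate block, and the bar is the list's median. Genes of the nuclear pore list have a median of -0.09 and those of the assembly list a median of 0.04.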

How the data were processed

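Gene counts from 4 MEF libraries (2 WT, 2 *Phf2* KO) were used. The authors deposited whole-number counts per gene, made by Trim Galore, removal of ribosomal RNA reads with Bowtie2, alignment to mm9 with STAR and counting with featureCounts. Versions are not given in the sources used here. A table with the authors' own DESeq2 comparison was not used.

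Tests used edgeR 4.0.16 in R 4.3.3 (filterByExpr, TMM, glmQLFit and glmQLFTest, Benjamini-Hochberg over 13668 genes, threshold 0.1). Alternatives were DESeq2 1.42.0, limma-voom 3.58.1, RLE or library-size scaling, all genes with at least 1 count, a threshold of 0.05, each library left out and the replicate block. The block in DESeq2 and limma-voom and the length of all annotated exons were added after the data were seen. CPM used TMM-scaled library sizes. A count of 3 was worth between 0.116 and 0.145 CPM, which covers counting error only. Within-replicate ratios added 0.01 CPM. Positions, lengths and sequences came from the GENCODE annotation and genome of mm9. Tests were tried on simulated counts.

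The labels do not say that replicate numbers pair libraries. The pairing rests on the sex markers and on the replicate difference, which was correlated between WT and *Phf2* KO across 11556 genes whose mean count was 50 or more (Pearson's r = 0.849; genes are not independent). The common dispersion was 0.0451 without and 0.00363 with the block, whose fit had 1 residual degree of freedom. With the block edgeR pooled the variance fully over genes, at the cap of 13668 total degrees of freedom. Its SEs, intervals and p-values with the block therefore hold no variance of the single gene. The genes described and all lists were chosen with earlier results of these data known. Genes named were the 10, *Phf2*, sex markers, up to 4 of each envelope list called with the block by smallest p, and up to 4 abundant proliferation genes. *Syne2*, *Zmpste24*, *Fnta* and *Fntb* were named after their values were seen.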

Additional observations from a re-analysis of the deposited data

Results flagged for a closer look

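For 5 of the 10 genes the log2 ratio of *Phf2* KO to WT had opposite signs in replicate 1 (female) and replicate 2 (male). With 1 library of each group in each replicate number, none of these differences in sign was tested. The replicate numbers also differed in macrophage markers and proliferation genes, which cannot be told apart from sex here. The ratio in replicate 1 minus that in replicate 2 was 0.27 for *Lmna* (0.11 and -0.16), 0.22 for *Sun2* (0.21 and -0.0077), 0.18 for *Sun1* (0.04 and -0.14), 0.17 for *Lemd3* (0.03 and -0.14) and -0.17 for *Tmpo* (-0.08 and 0.10). *Lmna*, *Sun1*, *Sun2* and *Lemd3* had the higher ratio in replicate 1, and *Tmpo* in replicate 2. Over all genes tested, 62.7% had the same sign in both replicates.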

How the results depend on the processing

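With genotype alone, edgeR called 1 of all genes, DESeq2 64, limma-voom 0, a threshold of 0.05 gave 0, and leaving out each library in turn gave 0 to 0. With the replicate block edgeR called 1500 genes, DESeq2 297 and limma-voom 1371. Of the 10 lamina and envelope genes, 0 were called with genotype alone and 1 (*Lmnb1*) with the block in edgeR and in limma-voom. Of the other envelope genes the block called 14 in edgeR and 13 in limma-voom, and in DESeq2 it called 0 of either set. Between replicates, scaling by library size alone called 1 of the 10 (*Lmna*). The sign of the log2 fold change turned for 4 genes. With 1 library left out, *Lmna* ran from -0.17 to 0.12 and *Sun1* from -0.15 to 0.043, both positive without WT replicate 2. *Lemd3* ran from -0.16 to 0.049, positive without *Phf2* KO replicate 2, and *Tmpo* from -0.16 to 0.18, negative without WT replicate 2 or *Phf2* KO replicate 1. *Tmpo* was also at -0.0098 with library size alone and -0.0013 with all genes counted. The cause of these changes was not tested. The other 6 genes kept their sign in every setting run. *Lmnb1* ran from 0.19 to 0.53 with 1 library left out and was the only one of the 10 with an unadjusted p below 0.05 in such a fit (without WT replicate 1). Leaving out a library from the replicate comparison left no residual degrees of freedom and was not run. The fit on genotype alone did not call *Phf2* itself, so the absence of a call there is no sign that a gene did not change.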
